A study of Mus musculus with 2 samples.

Results

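The genes described here are 10 genes for vasoactive peptides, the enzymes that make or break them down, and their receptors: Edn1, Adm, Ece1, Ace, Nos3, Ednra, Ednrb, Agtr1a, Calcrl and Ramp2. They were chosen by name, with no threshold on a measured value though with earlier results of these data known, and all 10 were found among the 20140 genes of the deposited tables. The tables hold mean expression per cluster of single cells from the stroma of the mouse submandibular salivary gland. Female C57BL6/J mice aged 14 weeks had either a metal clip placed to close the ducts that drain both the submandibular and the sublingual gland (the ligated library) or an operation that exposed the ducts without clipping them (the mock library), and glands were taken after 14 days. Each condition was measured in 1 droplet library pooled from 2 glands, so no difference has a replicate check and none carries a test. Whether the pooled glands came from the same mouse is not given in the sources used here. Epithelial cells bearing EpCAM and red blood cells bearing Ter119 had been depleted from both libraries before capture, and dead cells removed.

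These genes set the tone and leakiness of blood vessels. Endothelin-1, the product of Edn1, is cut to its active form by the converting enzyme Ece1 and constricts vessels through the receptor Ednra on smooth muscle, while Ednrb on endothelial cells takes up the peptide and triggers release of nitric oxide, the vasodilator made by Nos3. Ace makes angiotensin II and degrades bradykinin, Agtr1a is the main receptor that carries the constrictor signal of angiotensin II, and adrenomedullin, the product of Adm, relaxes vessels and tightens the endothelial barrier through Calcrl joined to its partner Ramp2.

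Levels are given in UMIs of the gene per 10000 UMIs of the cell, averaged over the cells of a cluster, where a UMI marks 1 captured RNA molecule. A mean cannot tell fewer expressing cells from less RNA per cell. Differences are log2((ligated + 0.1)/(mock + 0.1)). The size rule asks for a level of at least 0.5 in one library and a difference of 1 or more in either direction, and it was applied where both libraries had at least 50 cells in the cluster. Intervals in brackets are approximate 95% intervals for counting error only, computed from recovered cell numbers and UMI totals, and say nothing of the spread between animals.

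The tables held 12 clusters of all cells, from 11406 ligated and 4199 mock cells. They also held 5 clusters of a subset whose name lists Pdgfr and Gli1, from 1935 and 401 of the same cells. Subset values are therefore not independent of the others. Clusters are named by their markers. Cluster 0 was endothelial-like (2948 ligated and 2363 mock cells), and cluster 4 was endothelial-like as well (531 and 226), with 6 of 6 arterial and 3 of 6 lymphatic markers at their highest level there. Cluster 3 was fibroblast-like (1149 and 188), cluster 6 mural-like, meaning pericytes and vascular smooth muscle (420 and 161), cluster 1 natural killer-like, cluster 2 T cell-like, cluster 5 macrophage-like, cluster 7 ductal-like and cluster 9 Schwann-like. Clusters 8, 10 and 11 were led by acinar, erythroid and cycling genes and stay unnamed. Fewer than 50 mock cells were in clusters 8, 9 and 11 of the full set and in subset clusters 1 and 4, which were not compared. Markers of other cell types were found in the clusters too: in cluster 0 their median was 3.56% of the library mean in the mock and 9.33% in the ligated library, in cluster 6 12.3% and 23.0%, and in the ductal-like cluster 7 7.87% and 23.5%.

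The 2 genes on which the results turn most are Edn1 and Ednrb, and the 250 bases before their annotated starts are shown for the regulatory sequence next to them (RefSeq, build GRCm38.p6, which is mm10). The Edn1 window lies at chr13:42301226-42301475 on the + strand, directly before the gene, which spans chr13:42301476-42307990. The Ednrb window lies at chr14:103843702-103843951 on the - strand. It precedes the RefSeq start and falls in an intron of the longer GENCODE M21 gene model, which spans chr14:103814625-103844402. Capitals mark matches to CACCC, the core bound by Kruppel-like factors, on either strand, so that a match on the opposite strand reads GGGTG.
Edn1: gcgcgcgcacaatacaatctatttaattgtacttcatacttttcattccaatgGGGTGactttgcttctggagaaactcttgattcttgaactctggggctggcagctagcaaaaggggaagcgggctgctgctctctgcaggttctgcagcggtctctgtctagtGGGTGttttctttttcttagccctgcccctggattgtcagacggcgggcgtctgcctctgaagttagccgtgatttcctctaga
Ednrb: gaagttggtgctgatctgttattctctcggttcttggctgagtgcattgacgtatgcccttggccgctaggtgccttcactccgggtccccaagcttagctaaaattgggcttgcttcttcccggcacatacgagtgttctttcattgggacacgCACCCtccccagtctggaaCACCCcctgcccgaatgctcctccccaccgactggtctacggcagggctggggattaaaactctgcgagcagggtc
The Edn1 matches begin 197 and 84 bases before the start and those of Ednrb 95 and 76 bases before it. Windows were present for 7 of the 10 genes, 11 windows in all. CACCC occurred on either strand in 52.0% of all 32851 windows of 250 bases, so having it is common. The other motifs searched on both strands were TATAAA (12.4% of windows), ACGTG (16.6%), AGATAA (9.99%) and TGANTCA (6.75%), and none of these letters was in either window. A match is a description of the letters and not of a bound site.

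Where each gene was expressed followed 3 patterns. Edn1, Nos3 and Ace had their highest level in the endothelial-like cluster 4 of both libraries, Calcrl in the endothelial-like cluster 0, and Ece1 and Ramp2 in one or the other of these. Ednra, Agtr1a and Ednrb were highest in the mural-like cluster 6. Adm was the exception, with its highest levels in the fibroblast-like cluster 3 of the mock and the ductal-like cluster 7 of the ligated library, where the intervals of clusters 7 and 3 overlapped. None of the 10 genes reached 0.5 in the natural killer-like or T cell-like clusters, where the highest level was that of Ramp2, 0.395 in cluster 2 of the mock library. In the clusters of all cells, 34 of 90 pairs of a gene and a compared cluster reached a level of 0.5, and of these 6 were higher and 7 lower in the ligated library by the size rule. Of the 6 higher pairs, 4 were in clusters 7 and 10, where 14.8% and 23.0% of all genes were higher, against 3.92% and 3.29% in clusters 0 and 4, which held the other two. The lower pairs were in clusters where 2.81% to 5.32% of all genes were lower. In the compared clusters of the subset, 16 of 30 pairs reached the minimum, 0 were higher and 6 lower. In these clusters 4.26% to 6.29% of all genes were higher and 4.23% to 5.31% lower.

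**Figure D1:**
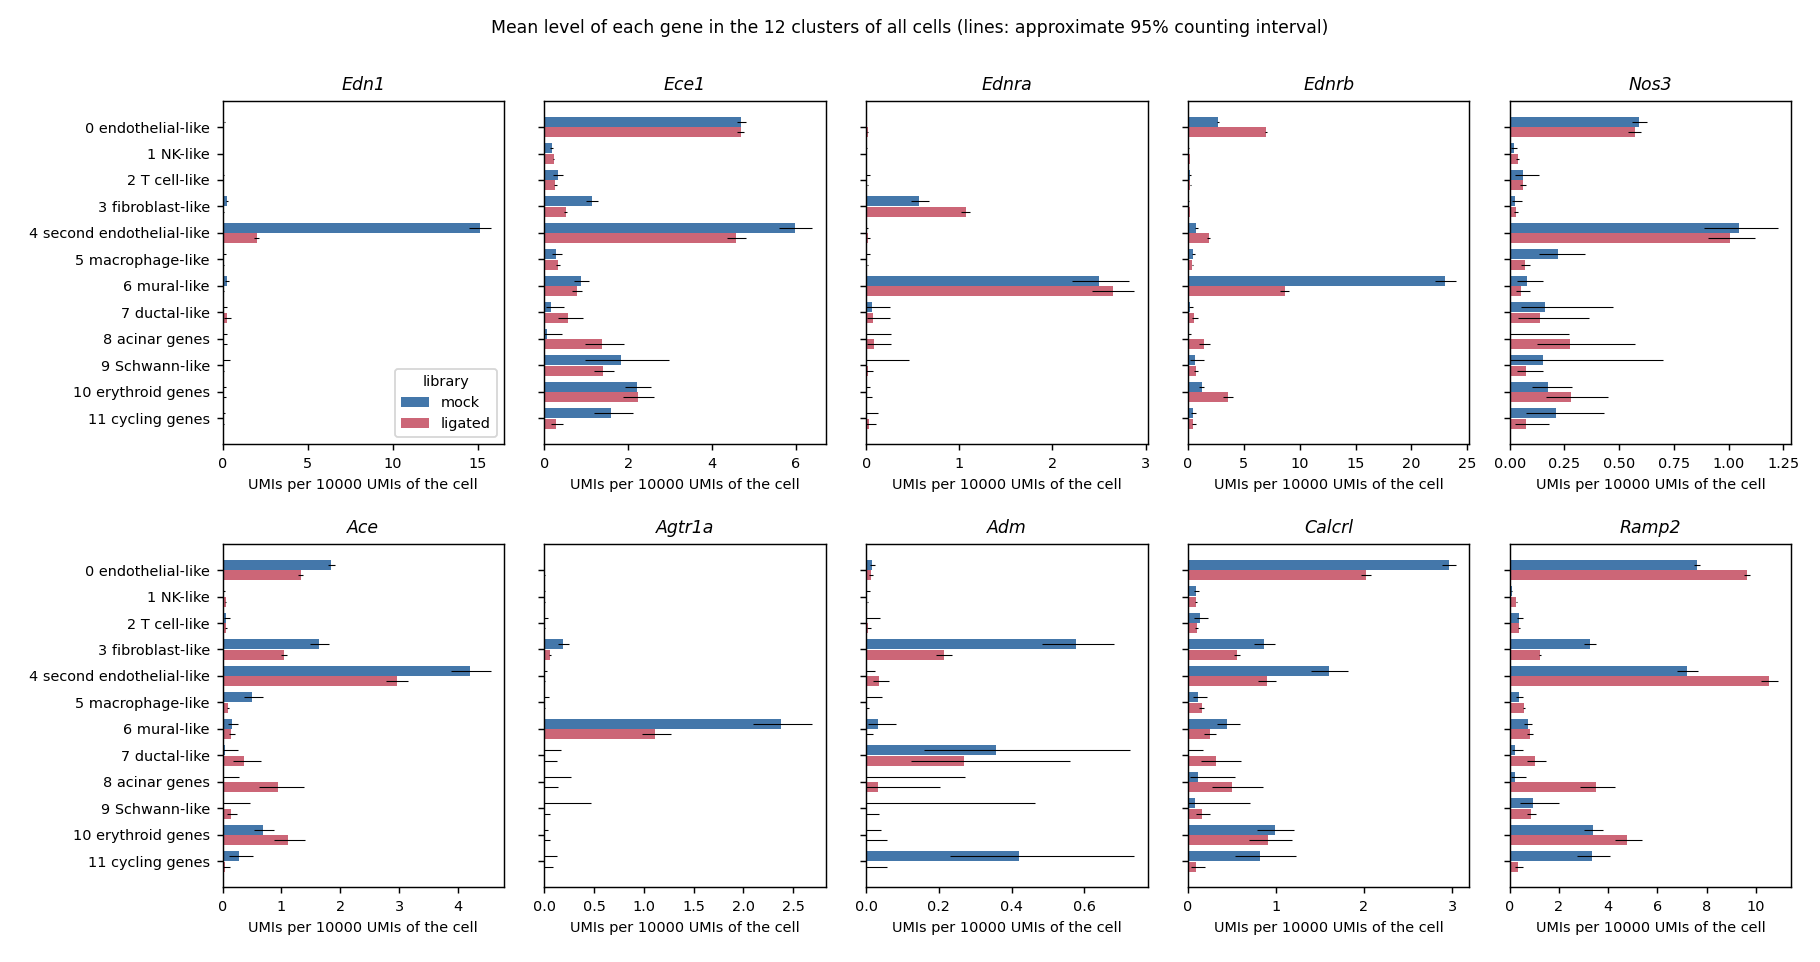
Mean level of each gene, in UMIs per 10000 UMIs of the cell, in the 12 clusters of all cells of the mock and the ligated library; bars start at 0, each panel has its own axis, and lines are approximate 95% counting intervals. Edn1 stands in cluster 4 almost alone, at 15.1 in the mock and 2.00 in the ligated library, and Ednrb is lower in cluster 6 and higher in cluster 0 of the ligated library.

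Edn1, the precursor of endothelin-1, had its largest difference in the endothelial-like cluster 4. Its level there was 15.1 (14.5 to 15.7) in the mock and 2.00 (1.86 to 2.16) in the ligated library, from about 2211 and 678 UMIs. This was 7.53-fold lower after ligation (6.91 to 8.22), a difference of -2.85. Edn1 was 1 of the 7 genes with a level of at least 0.5 in that cluster and the only one of them lower by the size rule, by which 2.81% of all 3918 genes past the same minimum were lower. Its difference lay below the lowest 2.5% of all genes in the cluster, which ended at -1.05.

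Outside cluster 4 Edn1 was low. In the mock library the next levels were 0.254 in the mural-like cluster 6 and 0.237 in the fibroblast-like cluster 3, whose intervals overlapped, followed by 0.113 in the endothelial-like cluster 0. In the ligated library the next was 0.258 in cluster 7, whose interval overlapped that of the cluster behind it. The level in cluster 0 was 0.0312 in the ligated library. Cluster 4 held 89.9% of the summed Edn1 level of the mock library and 76.7% of that of the ligated library. In the endothelial-like cluster 3 of the subset, with 260 ligated and 82 mock cells, Edn1 was 1.42 in the mock and 0.353 in the ligated library, a difference of -1.74. By the size rule 4.23% of all genes were lower in that cluster. The summed level of the 10 fibroblast markers there was 20.05 in the mock and 70.0 in the ligated library, and its part in the difference was not tested. Subset cluster 4, fibroblast-like with only 10 mock and 17 ligated cells, had Edn1 levels of 4.12 and 1.69.

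The markers of vessel type in cluster 4 moved in different directions beside Edn1. The summed level of the 6 arterial markers was 17.6 in the mock and 18.3 in the ligated library, and 0 of the 6 were at 0. Within it the connexin gene Gja4 was higher, at 3.94 and 6.75, and the kinase gene Bmx lower, at 1.73 and 0.65, while Sox17 was 6.33 and 6.23. The 5 venous markers summed to 5.85 and 2.14, with Vwf at 2.37 and 0.82 and Selp at 1.07 and 0.30. The 6 lymphatic markers summed to 9.18 and 10.47 and the 5 capillary markers to 109 and 62.5. The part of these markers in the lower Edn1 was not tested.

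Adm (chr7:110627661-110629820, + strand), the precursor of adrenomedullin, was low throughout, and among the compared clusters only the fibroblast-like ones reached the minimum level. Its level in cluster 3 was 0.578 in the mock and 0.213 in the ligated library, 2.71-fold lower (2.21 to 3.31) and a difference of -1.11. In the ductal-like cluster 7 it was 0.358 and 0.270, with overlapping intervals. In the cycling cluster 11 it was 0.421 and 0, from 22 and 59 cells. The fibroblast-like cluster 0 of the subset gave 0.593 and 0.223, a difference of -1.10. In the endothelial-like cluster 4 Adm was listed at 0 in the mock and at 0.0353 in the ligated library. Levels in clusters 5, 8 and 9 came from 1 UMI in 1 ligated cell each. Cluster 3 held 46.2% of the summed Adm level of the mock and 60.5% of that of the ligated library.

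Ece1 (chr4:137862237-137965229, + strand), which activates endothelin-1, was highest in the endothelial-like clusters of all cells and nearly equal between the libraries in cluster 0 but not in fibroblasts. In the endothelial-like cluster 0 it was 4.70 (4.60 to 4.79) in the mock and 4.68 (4.59 to 4.76) in the ligated library, so the intervals overlapped. In cluster 4 it was 5.98 and 4.57, 1.31-fold lower (1.20 to 1.42). The mural-like cluster 6 had 0.863 and 0.780, and the Schwann-like cluster 9 1.82 and 1.41, from 17 mock and 271 ligated cells. In the fibroblast-like cluster 3 Ece1 was lower by the size rule, at 1.13 (1.00 to 1.28) and 0.509, a difference of -1.02. This call rests on the scale, since the difference was -0.96 after centring on the median of all genes. For the fibroblast-like cluster 0 of the subset, Ece1 was 1.11 and 0.444, a difference of -1.16. The endothelial-like cluster 3 of the subset gave 4.95 and 3.49, not past the rule.

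Ace (chr11:105967945-105989964, + strand), which makes angiotensin II, was highest in cluster 4, at 4.21 in the mock and 2.96 in the ligated library, 1.42-fold lower (1.28 to 1.57). In cluster 0 it was 1.85 and 1.33, 1.39-fold lower (1.33 to 1.46). Cluster 3, fibroblast-like, had 1.64 and 1.04, so close to cluster 0 in the mock library that the intervals overlapped. None of these passed the size rule. In the small fibroblast-like cluster 4 of the subset, Ace was 6.73 in the mock and 5.08 in the ligated library. The single call was in the macrophage-like cluster 5, where Ace was 0.507 in the mock and 0.0919 in the ligated library, a difference of -1.66 from about 44 and 71 UMIs. There 4.34% of all genes were lower. The ligated level was within the range of markers of other cell types, and the 11 endothelial markers in that cluster summed to 11.9 and 8.89. After subtraction of the share of the library mean the difference was -2.26 but the higher level was 0.379, so the call ended through the minimum level alone. The part of endothelial RNA in it was not tested.

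Nos3 (chr5:24364810-24384474, + strand), the endothelial nitric oxide synthase, was nearly equal in both libraries in both endothelial-like clusters. In cluster 4 it was 1.05 (0.886 to 1.22) and 1.01 (0.904 to 1.12), a difference of -0.05. In cluster 0 it was 0.592 and 0.571, a difference of -0.04, with intervals that overlapped. The endothelial-like cluster 3 of the subset had 0.672 and 0.465, a difference of -0.45. No other compared cluster reached 0.5, and the mural-like and fibroblast-like clusters of all cells were at the level of markers of other cell types.

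Ednrb was the gene whose differences ran in opposite directions in vessel wall and lining. In the mural-like cluster 6 its level was 23.0 (22.1 to 23.97) in the mock and 8.65 (8.25 to 9.06) in the ligated library, 2.66-fold lower (2.51 to 2.83) and a difference of -1.40. In the endothelial-like cluster 0 it was 2.69 (2.61 to 2.76) and 6.96 (6.86 to 7.07), 2.59-fold higher after ligation (2.51 to 2.67) and a difference of 1.34. In the endothelial-like cluster 4 it was 0.754 and 1.86, 2.46-fold higher (2.01 to 3.05) and a difference of 1.19. Ednrb was the single member higher by the size rule in cluster 0, among 6 with a level of at least 0.5, where 3.92% of all genes were higher. In cluster 4 it was 1 of 7, beside 3.29% of all genes. In cluster 6 Ednrb and Agtr1a were the 2 of 5 members that were lower, beside 4.50% of all genes. The highest 2.5% of all genes began at 1.57 in cluster 0 and at 1.52 in cluster 4. The Ednrb differences of 1.34 and 1.19 did not reach these. In cluster 6 the lowest 2.5% of all genes ended at -1.30, and the Ednrb difference of -1.40 lay below it.

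The mean Ednrb level over whole libraries hid these differences, at 2.497 in the mock and 2.405 in the ligated library. If the ligated clusters were mixed in the mock proportions, the ligated mean would be 4.51. Cluster 0 held 60.5% of the summed Ednrb level in the mock and 74.8% in the ligated library, and cluster 6 held 35.4% and 13.2%. The mural-like cluster 2 of the subset, with 274 ligated and 128 mock cells, also had less Ednrb after ligation, at 26.7 and 10.9, a difference of -1.28. There 4.26% of all genes were lower by the rule. The endothelial-like cluster 3 of the subset had 4.14 and 5.31, a difference of 0.35 that was not past the rule.

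The other values that moved in these clusters stand beside the Ednrb levels. In cluster 6 the 11 mural markers summed to 220 in the mock and 137 in the ligated library, with 0 of the 11 at 0. The smooth muscle genes Myh11 (14.4 and 4.20), Tagln (30.7 and 13.3) and Acta2 (35.4 and 20.8) were lower. Of the pericyte genes, the receptor gene Pdgfrb was 12.7 and 12.6, while Rgs5 was lower after ligation too, with levels given below among the endothelin genes. The named smooth muscle and pericyte genes thus differed by unequal amounts, and the mix of these cells in the cluster was not tested. In cluster 0 the 11 endothelial markers summed to 210 and 171 and the 5 capillary markers to 196 and 78.1, the latter mainly through the lipid carrier gene Fabp4, at 144 and 47.3. Whether the makeup of these clusters moved the Ednrb means was not tested.

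Ednrb also passed the rule in clusters 7 and 10. In the erythroid-gene cluster 10, with 60 ligated and 85 mock cells, it was 1.22 and 3.54, a difference of 1.46. The endothelial markers in cluster 10 summed to 94.5 in the mock and 82.7 in the ligated library, and the macrophage markers to 22.7 and 48.8. The part of these markers in the Ednrb difference was not tested. There 23.0% of all genes were higher and the median difference of all genes was 0.56, and after centring on that median the Ednrb difference was 0.90. In the ductal-like cluster 7 Ednrb was 0.177 and 0.575, a difference of 1.29 from about 4 and 16 UMIs. Ece1 (0.167 and 0.554, difference 1.29) had the same numbers of UMIs, and the intervals of both included no difference (0.997 to 12.7 as a fold). Ramp2 (0.233 and 1.02, difference 1.75) was higher as well. The count of 3 of 3 stands beside 14.8% of all genes. After subtraction of the share of the library mean given by markers of other cell types, none of the 3 levels reached 0.5, at 0.010 for Ednrb, 0.152 for Ece1 and 0.208 for Ramp2 in the ligated library. The differences were then 0.14 for Ednrb, 1.34 for Ece1 and 1.62 for Ramp2, so the calls of Ece1 and Ramp2 ended through the minimum level alone. The recovered UMI totals of cells in cluster 7 had a median of 1082 in the mock library and 1012 after ligation.

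Ednra (chr8:77663031-77724464, - strand), the constrictor receptor for endothelin-1, differed little in mural cells and was higher in fibroblasts, though not past the rule. In the mural-like cluster 6 it was 2.505 (2.21 to 2.82) in the mock and 2.65 in the ligated library, with overlapping intervals. In the fibroblast-like cluster 3 it was 0.568 and 1.07, 1.88-fold higher (1.58 to 2.25), a difference of 0.81. The fibroblast-like cluster 0 of the subset gave 0.620 and 1.14. In 9 of the 12 clusters of all cells Ednra was listed at 0 in the mock library, and the same clusters stayed at or below 0.0817 in the ligated library. Cluster 6 held 77.3% of the summed Ednra level in the mock and 44.5% in the ligated library, and cluster 3 20.5% and 49.1%.

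Agtr1a (chr13:30336441-30382867, + strand), the angiotensin receptor, stood above the level of markers of other cell types in the mural-like cluster 6 and the fibroblast-like cluster 3 alone among the clusters of all cells. In cluster 6 it was 2.37 in the mock and 1.11 in the ligated library, 2.13-fold lower (1.77 to 2.56) and a difference of -1.03, which became -0.95 after centring. In the mural-like cluster 2 of the subset it was 2.86 and 1.51, 1.90-fold lower (1.53 to 2.38), with a difference of -0.88 that missed the rule. Cluster 3 had levels of 0.183 and 0.0575, both under the minimum. In clusters 2, 7, 9, 10 and 11 the level came from 1 UMI in 1 ligated cell. Cluster 6 held 89.7% of the summed level in the mock and 84.8% in the ligated library.

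Calcrl (chr2:84330626-84425411, - strand), the adrenomedullin receptor, was lower after ligation in both endothelial-like clusters without reaching the rule. In cluster 0 it was 2.97 and 2.02, 1.47-fold lower (1.41 to 1.53). In cluster 4 it was 1.60 and 0.895, 1.79-fold lower (1.498 to 2.12). The endothelial-like cluster 3 of the subset passed the rule, with 3.20 in the mock and 1.34 in the ligated library, a difference of -1.20. With Edn1, it made 2 of 7 members lower there, beside 4.23% of all genes. The 11 endothelial markers in that cluster summed to 190 and 121 and the 5 capillary markers to 157 and 58.5. The 10 fibroblast markers summed to 20.05 and 70.0. The part of these markers in the lower Calcrl was not tested. The fibroblast-like cluster 3 of all cells had 0.868 and 0.554.

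Ramp2 (chr11:101246028-101259546, + strand), the partner that makes Calcrl an adrenomedullin receptor, went the other way in endothelial cells. In cluster 0 it was 7.60 and 9.64, 1.27-fold higher after ligation (1.24 to 1.29), and in cluster 4 7.20 and 10.53, 1.46-fold higher (1.36 to 1.57). Neither passed the rule. In the fibroblast-like cluster 3 Ramp2 was lower, at 3.25 and 1.23, 2.63-fold (2.42 to 2.86) and a difference of -1.33. The fibroblast-like cluster 0 of the subset had 3.24 and 1.05, a difference of -1.54. Ramp2 shares exon sequence on the same strand with Vps25, so its counts are uncertain where reads could be split, although Vps25 reached at most 0.169 in the mock and 0.0739 in the ligated library. Of the related partners, Ramp3 was 5.58 and 4.70 in cluster 0 and Ramp1 stayed under 0.5 in clusters 0, 3, 4 and 6.

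Fibroblasts held more of the lower calls than any other compared cluster of all cells. In cluster 3, 3 of the 6 genes with a level of at least 0.5 were lower by the rule, namely Ece1, Adm and Ramp2, where 5.32% of all genes were lower. The median difference of the 6 was -0.81, against -0.06 for all genes past the same minimum. Subset cluster 0, fibroblast-like, had the same 3 genes lower of 6, beside 5.31% of all genes, with medians of -0.75 and -0.07. These are largely the same cells and add no independent count. In cluster 3 the 11 endothelial markers summed to 7.20 in the mock and 9.43 in the ligated library, and the 5 capillary markers to 3.41 and 2.56. The 10 fibroblast markers summed to 339 and 282. Among them Dpt was 8.77 and 1.15 and Pi16, a marker of adventitial fibroblasts, 5.22 and 2.42, both falling by more than the sum. The part of these markers in the differences was not tested. In cluster 4 the median difference of the 7 genes was -0.38 against 0.00 for all genes, and in cluster 0 that of the 6 was -0.02 against 0.01.

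**Figure D2:**
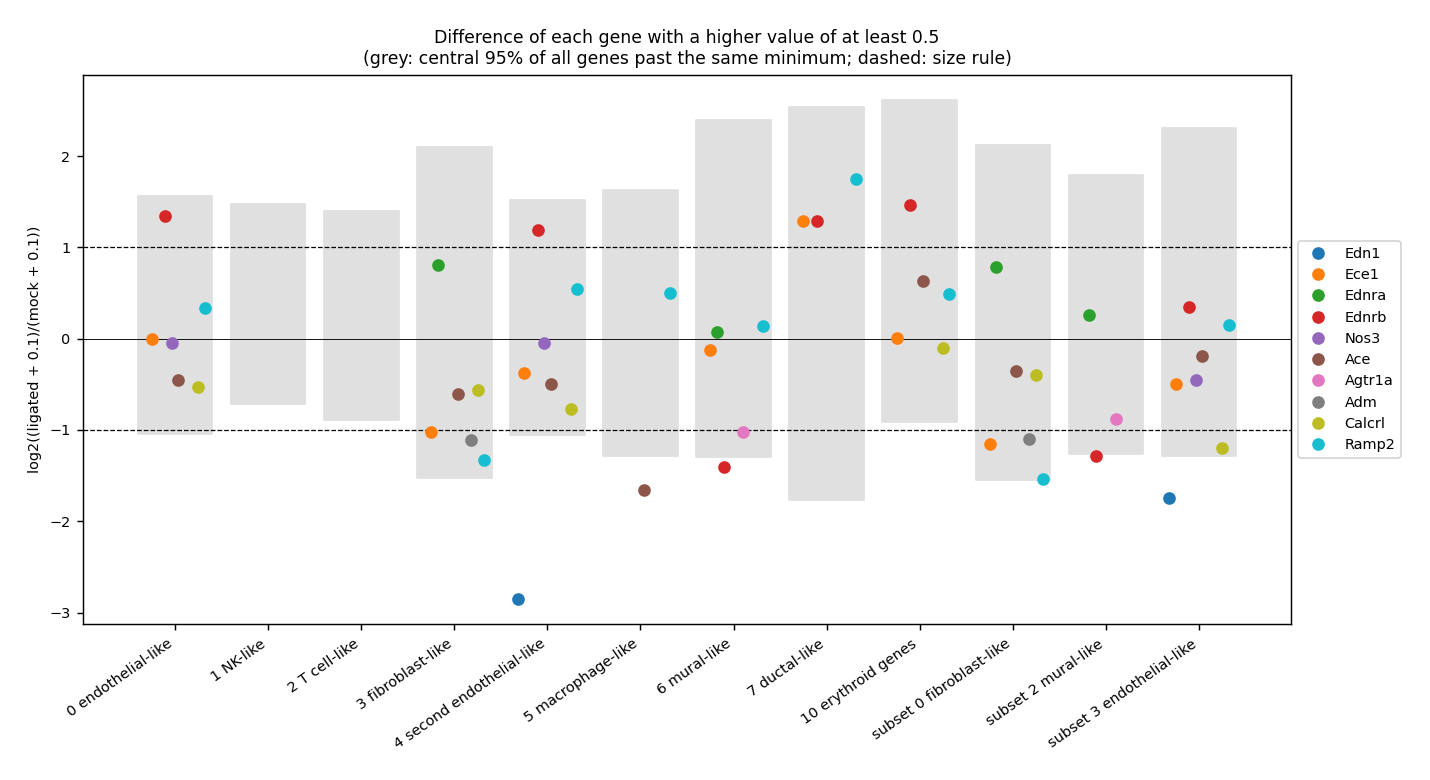
Difference, log2((ligated + 0.1)/(mock + 0.1)), of each gene with a level of at least 0.5 in a compared cluster; grey boxes span the central 95% of all genes past that minimum and dashed lines mark the size rule. Edn1 in cluster 4 (-2.85) lies farthest below its box, and Ednrb is above the upper line in clusters 0 and 4 and below the lower line in cluster 6.

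Clusters with few mock cells were described but not compared. In cluster 8, led by acinar genes and holding 264 ligated and 25 mock cells, Ramp2 was 0.217 in the mock and 3.52 in the ligated library, and Ednrb was listed at 0 and at 1.40. The median of markers of other cell types there was 3.46% of the library mean in the mock and 90.6% in the ligated library, so these markers were near the mean of the whole library in its ligated cells. In the cycling cluster 11, with 59 ligated and 22 mock cells, Ramp2 was 3.34 and 0.349, Ece1 1.59 and 0.279, and Calcrl 0.824 and 0.0959. Markers of other cell types had medians of 19.4% and 15.3% there, but single lists differed between the libraries. The endothelial markers in cluster 11 summed to 73.3 in the mock and 10.9 in the ligated library. The neutrophil markers summed to 36.2 and 0.00509, and the T cell markers to 4.84 and 33.4. The part of these markers in the differences was not tested.

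The share of each gene's summed level that a cluster holds depends on its number of cells as well as on its level. Cluster 0 held 86.0% of the Ramp2 level in the mock and 72.2% in the ligated library, 89.8% and 74.0% of Calcrl, 83.6% and 70.7% of Ece1, 80.1% and 62.9% of Nos3, and 75.4% and 51.9% of Ace. It held 2363 of 4199 mock and 2948 of 11406 ligated cells. For these 5 genes the mean over the whole library was lower after ligation. It was 3.16 and 1.71 for Ece1, 0.415 and 0.234 for Nos3, and 1.86 and 0.705 for Calcrl. At the cell mix of the mock library the ligated means would be 3.07, 0.402 and 1.28. Ace had library means of 1.38 and 0.660, and 1.02 at the mock mix. For Ramp2 the direction turned with the mix, from 4.97 and 3.45 to 6.32 in the ligated library at the mock mix. Edn1 had a library mean of 0.905 and 0.122, and 0.146 at the mock mix.

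**Figure D3:**
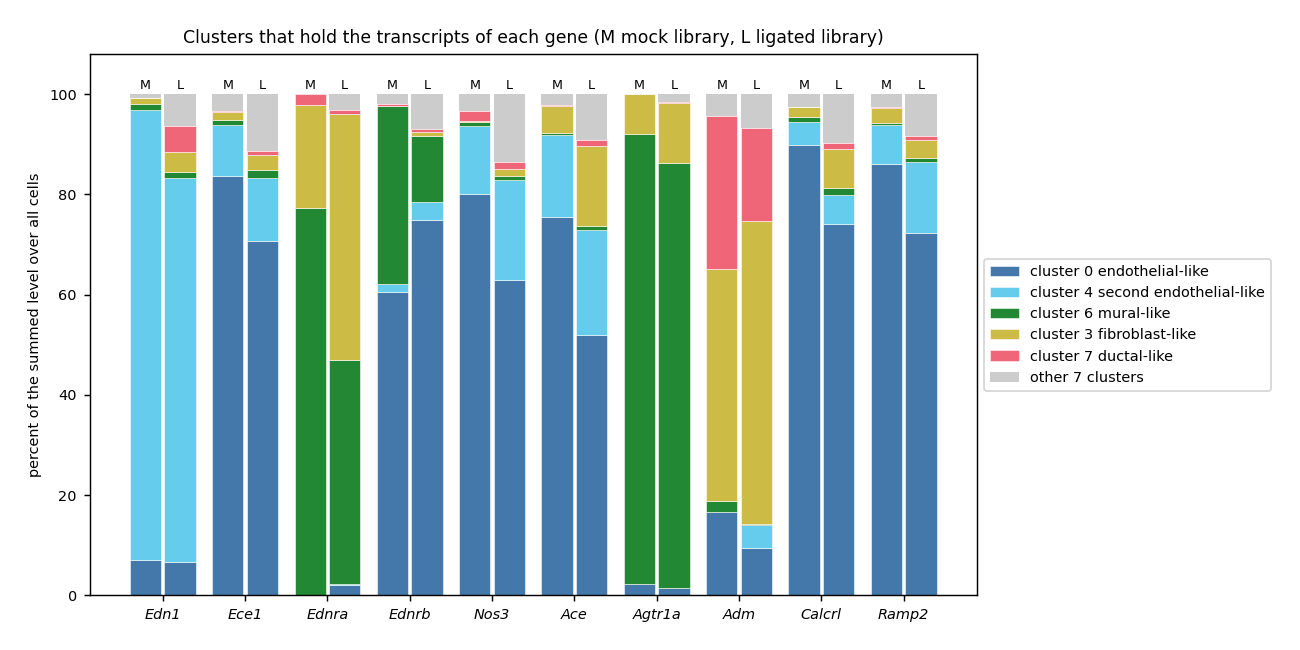
Percent of each gene's summed level over all cells that lies in each cluster, for the mock (M) and the ligated (L) library. Edn1 lies mainly in cluster 4 of both libraries, and the largest share of Ednra is in cluster 6 in the mock (77.3%) and in cluster 3 in the ligated library (49.1%).

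Other genes of the same pathways were taken from 8 lists of 126 genes, of which 110 had a row. By the size rule 3.92%, 4.47%, 3.29% and 4.92% of all genes were higher in clusters 0, 3, 4 and 6. The shares lower were 2.68%, 5.32%, 2.81% and 4.50%. Among the other endothelin genes (precursors, peptidases and the Gq signalling chain), 0 of the 5 that reached 0.5 in cluster 0, 0 of 5 in cluster 4 and 0 of 5 in cluster 6 passed the size rule. The G protein regulator gene Rgs5, a pericyte marker, was 73.5 and 56.1 in cluster 6, and the phospholipase gene Plcb1 3.79 and 3.03 in cluster 0.

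In the nitric oxide list, 0 were higher and 1 of 7 was lower in cluster 0, beside 2.68% of all genes lower. In cluster 4 the counts were 0 and 1 of 9, beside 2.81% lower. The lower gene was in each case Ddah1, which breaks down an inhibitor of nitric oxide synthases, at 0.531 and 0.160 in cluster 0 and 0.954 and 0.401 in cluster 4. In cluster 6, 1 of 10 was lower, beside 4.50% of all genes: the caveolin gene Cav1, at 4.80 and 2.30. Subset cluster 2 had the same, with Cav1 at 4.70 and 2.12. The nitric oxide receptor subunit Gucy1a1 was 9.84 and 9.53 in cluster 6. In cluster 3 it was higher, at 0.048 and 0.597, a difference of 2.23, and Cav1 was lower, at 0.583 and 0.185.

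Among the reported genes of the renin-angiotensin and kinin list, the aminopeptidase gene Anpep was lower in cluster 3, at 1.66 and 0.469. Klk1, the kallikrein of salivary ducts that frees kinins, was 346 and 898 in the ductal-like cluster 7. It was higher in every compared cluster, for example 0.286 and 2.05 in cluster 0, and subtraction of the share of the library mean left it at 0 in both libraries there.

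Among the reported genes of the adrenomedullin and calcitonin list, the decoy receptor gene Ackr3 was lower in cluster 3, at 0.5848 and 0.1428, and in subset cluster 2, at 0.787 and 0.246. The G protein gene Gnas was 26.4 and 14.4 in cluster 0, and passed the rule in subset cluster 3, at 25.6 and 12.6. In the natriuretic peptide and apelin list, the apelin receptor gene Aplnr was higher wherever Ednrb was higher among the endothelial-like clusters, at 0.994 and 2.44 in cluster 0 and 0.138 and 0.523 in cluster 4. Aplnr was higher too in subset cluster 3, at 0.469 and 1.29, where Ednrb missed the rule. The protease gene Furin was 1.20 and 0.601 in cluster 4, not past the rule.

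In the prostanoid list 0 genes passed in clusters 0, 3, 4 and 6; Ptgs1, the constitutive cyclooxygenase, was 2.97 and 2.76 in cluster 0 and Ptges 1.22 and 0.615 in cluster 3. In the list of neural vasoactive genes, the neuropeptide Y receptor gene Npy1r was 1.76 and 1.11 in cluster 6, and the purine receptor gene P2ry1 1.59 and 0.779 in cluster 3. P2ry1 passed the rule in subset cluster 0, at 1.72 and 0.785. Of the regulators induced by flow or low oxygen, 0 of 8 passed in cluster 0 and 0 of 8 in cluster 4. Klf2, a flow-induced factor that represses Edn1 and activates Nos3, was 18.7 and 15.3 in cluster 4, and Epas1 16.3 and 8.53. In cluster 3, 2 of 9 were lower, beside 5.32% of all genes: Ddit4 at 0.884 and 0.114 and Klf4 at 1.93 and 0.647. Jun was higher in cluster 6, at 3.01 and 6.13.

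Beside the calls in the small or shallow clusters, further listed genes passed the rule. In cluster 7 the nitric oxide genes Nos1 (0.576 and 0.146) and Arg1 (5.25 and 2.45) and the phospholipase gene Plcb4 (2.55 and 0.994) were lower, and Fos (0.743 in the mock library, difference 1.88) and Atp6ap2 (0.072 and 0.736) higher. Of all genes in cluster 7, 14.8% were higher and 11.6% lower. In cluster 10 Fos (2.74 and 6.85), Jun (4.27 and 10.499) and Aplnr (0.225 and 1.13) were higher. There 23.0% of all genes were higher, and the median difference of all genes was 0.56. In the macrophage-like cluster 5 Nr4a1 was lower, at 0.949 and 0.119, and Ass1, which remakes arginine, higher, at 0.248 and 0.621. Of all genes in that cluster, 4.34% were lower and 4.15% higher.

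**Figure D4:**
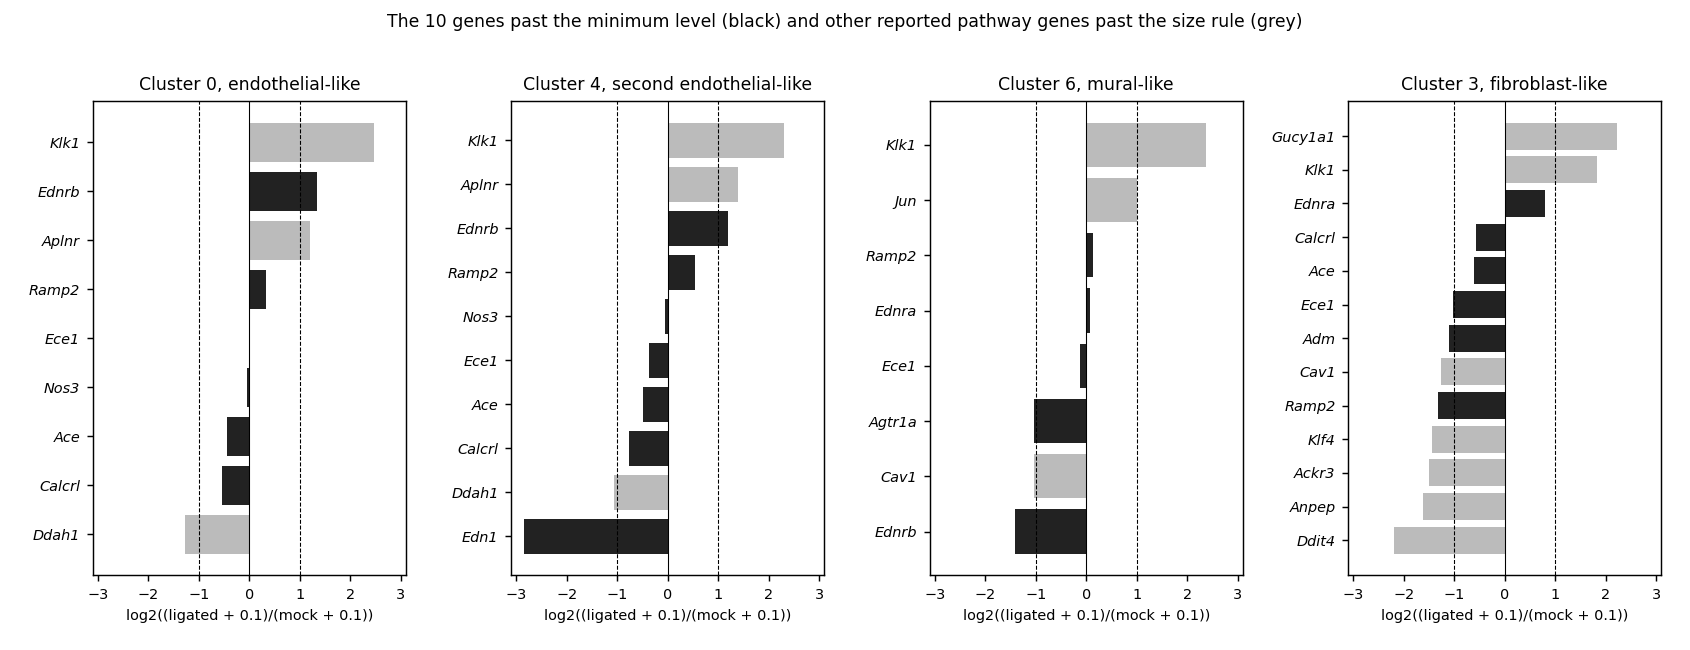
Difference, log2((ligated + 0.1)/(mock + 0.1)), of the 10 genes where their level reached 0.5 (black) and of the other reported vasoactive pathway genes past the size rule (grey) in clusters 0, 4, 6 and 3; dashed lines mark the rule. Edn1 has the lowest bar of cluster 4, Ednrb that of cluster 6 (-1.40), and Ednrb stands with Aplnr among the higher genes of clusters 0 and 4.

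The genes most like each of the 10 in their pattern were found by Pearson's r of log2(level + 0.1) over the 24 values of 12 clusters in both libraries, among 7765 genes. These values share libraries, depth and cell numbers, so r is a description. Edn1 was most like the arterial connexin gene Gja5 (r = 0.94), then Aif1l and Gkn3 (both 0.93). Ednrb was most like Id4 (0.92), then Gcnt2 (0.88) and Stard8 (0.86). Ednra was most like Foxs1 (0.99), Aspn and Lin7a, and Agtr1a most like Kcne4 (0.99), Ccdc3 and Npy1r. Calcrl was most like the prostaglandin transporter gene Slco2a1 (0.95), Adamts9 and Ptprg, and Ramp2 most like Clec14a (0.97), Jcad and Cd34. Ece1 was most like Plxna2 (0.96), Sptbn1 and Ptprm, Nos3 most like Kif26a (0.94), the Notch ligand gene Jag2 and Pik3r3, and Ace most like Epha4 (0.96), Cx3cl1 and Xdh. Adm had the lowest best value, 0.83 with the peptidase gene Mme, then Dpysl3 and Fndc5. Between members, r was 0.94 for Ece1 and Ramp2, 0.92 for Calcrl and Ramp2, and 0.90 for Ednra and Agtr1a.

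Some members overlap other genes on the opposite strand: Edn1 with Gm47118, Ednra with 4933431K23Rik, Nos3 with Atg9b and Gm15587, and Ace with Gm11651. Whether counting used strand is not given in the sources used here, so it is not known whether reads of such pairs were told apart. Atg9b reached at most 0.0543 in any cluster and 4933431K23Rik at most 0.0571.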

How the data were processed

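Gene levels were measured with 10X Genomics droplet RNA sequencing in 1 ligated and 1 mock library. The authors deposited 4 tables of linear cluster means; per the submitters' processing notes, Cell Ranger 6.0.1, Seurat and the build mm10 were used, and their settings are not given in the sources used here. Per the values, the deposited unit (other: neither counts nor CPM) is UMIs per 10000 UMIs of the cell: all 51 value columns sum to 10000 within 0.01. Dates stood in place of 21 gene names of the split tables, which were put back by row order; 0 columns were left without a sample. Doublets were not removed here. The labels record no replicate numbers.

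Cell numbers were computed from the ratio of joint to split means, and UMI totals from genes seen in 1 cell, which favours deep cells. Approximate UMIs (level, times cells, times median total) gave the exact Poisson and conditional binomial 95% intervals for counting error. Clusters were named from 19 marker lists. A share of the library mean was estimated in each cluster as the median over markers of other cell types. The level that counts as that of such markers is their upper quartile, a rule chosen after seeing the data.

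Named are the 10 genes; pathway genes past the size rule in a compared cluster where one of the 10 is past it or in the cluster with the highest level of one of the 10, and the 2 highest genes of each list; and the 3 genes most like each of the 10. Some pathway genes that this rule names are not reported here. Markers and genes that share sequence with the 10 are named outside this rule. The genes and lists were chosen with earlier results of these data known. No count model was fitted, since no counts per cell were used. Alternatives were the pseudocount, the minimum level, the size, centring, subtraction and the choice of clusters. The recovery of cell numbers and the size rule were tested on simulated data. Coordinates are from GENCODE M21 (mm10) and promoter windows from RefSeq. Analyses used Python 3.11.15, numpy 2.4.6, scipy 1.17.1, pandas 2.3.3 and matplotlib 3.10.9.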

Additional observations from a re-analysis of the deposited data

Results flagged for a closer look

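For 3 of the 10 genes the differences between the libraries passed the size rule in opposite directions in different clusters. With 1 library per condition, no difference between clusters was tested. Ednrb was higher after ligation in cluster 0 (1.34), cluster 4 (1.19), cluster 7 (1.29) and cluster 10 (1.46), and lower in the mural-like cluster 6 (-1.40). Ece1 was higher in the ductal-like cluster 7 (1.29) and lower in the fibroblast-like cluster 3 (-1.02). Ramp2 was higher in cluster 7 (1.75) and lower in cluster 3 (-1.33). The share of all genes past the rule in opposite directions was not computed. In cluster 7, 14.8% of all genes were higher and 11.6% lower. After subtraction of the share of the library mean, Ece1 and Ramp2 there were at 0.152 and 0.208 in the ligated library, under the minimum. Their differences were then 1.34 and 1.62. The Ece1 difference in cluster 3 was -0.96 after centring. The values in cluster 7 rest on 16 UMIs for Ednrb, 16 for Ece1 and 29 for Ramp2 in the ligated library, and on 4, 4 and 5 in the mock library, and the intervals of Ednrb and Ece1 there included no difference.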

How the results depend on the processing

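Of the pairs in the clusters of all cells, 6 were higher and 7 lower, and in the subset 0 and 6. With a pseudocount of 1 the counts were 2 higher and 2 lower, and 0 and 2 in the subset. Without a minimum level 10 were higher and 9 lower, and with a minimum of 2 there were 2 and 4, and 3 lower in the subset. At 1.5-fold 8 were higher and 9 lower, and 1 and 7 in the subset. At 4-fold 0 were higher and 1 lower, and 0 lower in the subset. With the share of the library mean subtracted 3 were higher and 6 lower, the higher calls of cluster 7 and the lower call of Ace in cluster 5 having ended. Of these, Ece1 (1.34) and Ramp2 (1.62) in cluster 7 and Ace (-2.26) in cluster 5 kept a difference of that size and ended through the minimum level. Over all clusters, including those with few cells, 11 were higher and 10 lower, and 1 and 8 in the subset. Without clusters 7 and 10, a choice made after seeing the data, 2 were higher and 7 lower. A pseudocount of 0.01 gave the same calls, all of them shared. Centring on the median of all genes gave 5 and 5, ending the calls of Ece1 in cluster 3, Agtr1a in cluster 6 and Ednrb in cluster 10. Edn1 in cluster 4 and Ednrb in clusters 0 and 6 stayed past the rule under a pseudocount of 0.01 or 1, centring and subtraction. Least squares gave the same cell numbers. The number of cells and UMIs limits the counting intervals, and 1 library per condition leaves the spread between animals unknown. No paired analysis was possible because each condition had 1 library and the labels carry no replicate numbers.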
